A study of Homo sapiens with 34 samples.

Results

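Cells that spent the second day of differentiation in lateral mesoderm (LM) medium were compared with cells that spent it in paraxial mesoderm (PM) medium. The comparison takes every library of these media, 16 of the 34 in the series, with 8 in LM and 8 in PM, and the libraries were taken by their labels and not by anything measured in them. All libraries came from wild-type ESI017, an established human embryonic stem cell line, so the data describe 1 line in culture. Before the second day the cells had received 1 of 4 day 1 treatments, and each combination of day 1 treatment and medium has 2 replicates. The DE(a) treatment was activin at 100 ng/ml together with CHIR99021, an activator of the Wnt pathway, at 2 µM. For anterior primitive streak (APS), activin was lowered to 30 ng/ml, CHIR99021 was 4 µM and bFGF was added at 20 ng/ml. Mid primitive streak (MPS) used the same activin and bFGF, with CHIR99021 at 6 µM and BMP4 at 40 ng/ml. Posterior primitive streak (PPS) was made like MPS but without activin. On day 2, both media held A-8301 at 1 µM. LM added BMP4 at 30 ng/ml and the inhibitor IWP2 at 4 µM, while PM added LDN-193189 at 250 nM and bFGF at 20 ng/ml. The study's text describes Wnt activation in PM differentiation, and a legend in its supplement lists CHIR99021 for PM medium, which the labels do not. Whether these PM libraries received it is therefore unclear. RNA was taken at 48 h, and libraries of the same populations at 24 h, before the second medium, served as the starting point.

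BMP4 binds receptors that phosphorylate SMAD proteins, which switch on genes such as the ID family and feedback inhibitors of the pathway. LDN-193189 blocks those receptors, IWP2 stops cells from secreting Wnt ligands, and A-8301, present in both media, blocks the receptors for activin, Nodal and TGF-beta. In the embryo, mesoderm near the midline, where BMP is low and Wnt and FGF are high, forms the presomitic mesoderm that later segments into somites. Mesoderm further out, where BMP is high, forms the lateral plate, which gives rise to heart, limb and body wall tissue. LM and PM media differ in several factors at once. A difference between them cannot be assigned singly to BMP4, LDN-193189, bFGF, IWP2 or, if PM held it, CHIR99021.

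LM libraries held 15705663 to 21076327 estimated counts and PM libraries 15858749 to 23439799. Levels are given as CPM, a gene's count as its part of the library total, and are comparable between libraries but not between genes. For a gene with no count, 3 counts of the total were taken as the upper limit, which covers counting error only. The quasi-likelihood test was edgeR's, and genes with an adjusted p under 0.05 are called. For 631 of the genes tested the average could not be estimated (a standard error over 50), and 629 of these had both replicates of an LM or PM condition at 0 counts. They count as not called. A log2 fold change is LM over PM, averaged over the 4 day 1 treatments unless 1 of them is named, and is given with its standard error (SE). The labels do not say whether replicates came from separate cultures, although figure legends of the study call them biological replicates, so p-values measure the spread between these libraries. With whole cultures, more cells that express a gene and more RNA per cell cannot be told apart.

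The labels were checked against marker genes first. HAND1, HAND2, ISL1, FOXF1 and GATA4, which mark lateral mesoderm, each had every LM library above every PM library. HAND1 and ISL1 are not specific to it, since the study also stained both in an amnion-like subset of LM cultures. TBX6, MSGN1, CDX2, DLL1 and HES7, which mark presomitic mesoderm, each had every PM library above every LM library. No library stood against its label.

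Over all 17895 genes tested, 3756 (21.0%) were higher in LM and 3758 (21.0%) were lower in LM on average over the day 1 treatments. Counts for the gene lists below are to be read against these shares. Taken by day 1 treatment, genes higher in LM numbered 1710 (9.56%) for DE(a), 1978 (11.1%) for APS, 1700 (9.50%) for MPS and 2156 (12.0%) for PPS. Genes lower in LM numbered 1565 (8.75%), 1928 (10.8%), 1557 (8.70%) and 1917 (10.7%) in the same order. Called in the same direction after every day 1 treatment were 709 genes (3.96%) higher in LM and 664 genes (3.71%) lower in LM. The median log2 fold change was 2.02 for the 709 genes and -2.09 for the 664, which the need for a call after each day 1 treatment favours, since small changes rarely pass with 2 libraries a group. Of the first set 82.8% and of the second 79.4% differed by over 2-fold. By day 1 treatment the median for the genes higher in LM ran from 1.80 to 2.11, against a median size of 0.375 to 0.427 over all genes tested.

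**Figure D1:**
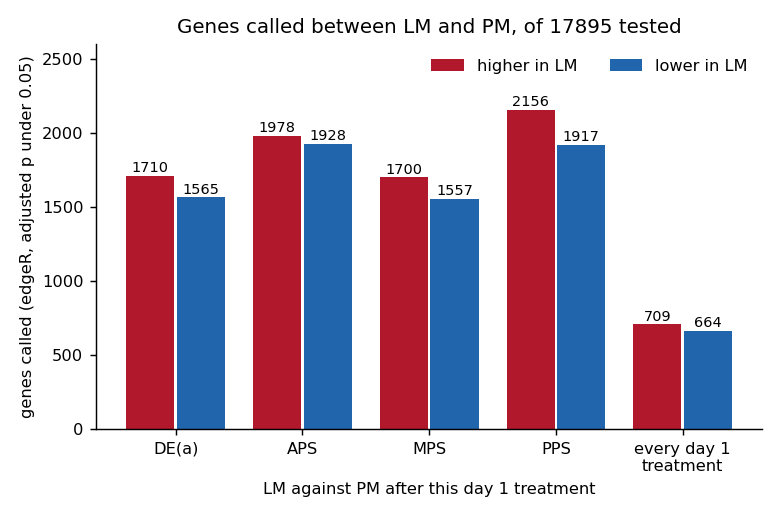
Number of genes called between LM and PM by edgeR at an adjusted p under 0.05, after each day 1 treatment and after every one of them, of 17895 tested. Each day 1 treatment gave between 1557 and 2156 genes per direction, and 709 and 664 genes were called after all 4.

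BMP target genes were higher in LM. Of 12 listed and tested, 10 were called higher and 2 lower on average, 9 were higher after every day 1 treatment, and the median log2 fold change of the list was 3.77 against 0.00417 over all genes tested. The summed level of the list was 2088 to 2704 CPM in LM and 285.5 to 525.4 CPM in PM. SMAD6 and SMAD7 are intracellular inhibitors of SMAD signalling, BAMBI is a decoy receptor, and ID1 and ID2 repress other transcription factors. They are often used as readouts of the pathway. SMAD6 and SMAD7 also stood above their PM ranges in DE(b), another day 2 medium of the series, with activin and LDN-193189. There SMAD6 was at 52.9 to 89.3 CPM and SMAD7 at 29.1 to 78.2 CPM. ID2 (6.73 to 31.9 CPM) and BAMBI (16.7 to 117 CPM) overlapped their PM ranges in DE(b). The reason was not tested.

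The regulatory sequence of SMAD6 is shown because its promoter holds a SMAD element. SMAD6 lies at chr15:66702236-66782849 on the plus strand (GENCODE v44, GRCh38). The 250 bases before its start in RefSeq (GRCh38.p14, chr15:66701986-66702235, plus strand) hold 1 copy of GTCTAGAC, a palindromic SMAD element, shown in capitals. The copy begins 12 bases before the start.
SMAD6: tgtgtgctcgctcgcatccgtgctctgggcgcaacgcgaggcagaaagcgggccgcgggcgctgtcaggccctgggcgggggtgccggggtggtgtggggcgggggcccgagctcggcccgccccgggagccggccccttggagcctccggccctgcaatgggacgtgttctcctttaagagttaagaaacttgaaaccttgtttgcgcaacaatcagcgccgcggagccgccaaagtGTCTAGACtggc
Of 35116 RefSeq promoters of this length, 64 (0.182%) held GTCTAGAC, which reads the same on both strands. Among the 11 BMP target genes with a promoter in the table, 1 held it. By gene, it was held by 2 of 533 (0.375%) of those higher in LM after every day 1 treatment. The counts were 0 of 502 for those lower and 30 of 12272 (0.244%) for all tested. A match describes the letters and does not show that a factor binds there, and which SMAD proteins could read it was not tested.

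SMAD6 stood at 229.7 to 705.8 CPM in LM, with a median of 526, and at 12.3 to 26.3 CPM in PM. The highest LM libraries were those after APS and DE(a), at 598 to 706 CPM, and the lowest those after PPS, at 230 and 291 CPM. The media did not overlap, and the log2 fold change of SMAD6 was 4.66 (SE 0.12, adjusted p = 5.15e-17). SMAD7 stood at 74.5 to 102 CPM in LM and 2.69 to 8.61 CPM in PM, with log2 fold change 4.17 (SE 0.11, adjusted p = 5.15e-17). ID2 had a median of 267 CPM in LM and 17.6 CPM in PM, and BAMBI of 654 and 38.4 CPM, in both cases with no overlap between media. ID1 ranged from 85.9 to 363 CPM in LM, highest after DE(a), and from 3.29 to 53.6 CPM in PM, highest in a PPS library. MSX2, a homeobox gene induced by BMP in many tissues, stood at 121 to 206 CPM in LM and at 9.17 to 45.4 CPM in PM.

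The 2 members that were lower in LM were MSX1, a relative of MSX2, and ATOH8, a transcription factor. MSX1 had PM libraries at 93.7 to 129.6 CPM and LM libraries at 5.82 to 86.3 CPM, and was called lower after 1 day 1 treatment and on average (log2 fold change -1.35). ATOH8 had PM libraries at 11.2 to 15.1 CPM and LM libraries at 1.75 to 4.58 CPM, and was called lower after all 4 (log2 fold change -2.19).

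Of 12 BMP ligands and secreted modulators, 9 were higher in LM, 2 were lower and 1 was not called. NOG, which binds BMP ligands outside the cell, was higher after every day 1 treatment. It stood at 29.6 to 52.6 CPM in LM and at 0.34 to 1.14 CPM in PM, with no overlap (log2 fold change 5.69, SE 0.22, adjusted p = 5.75e-15). BMP4 itself, added as protein to LM, was also higher as mRNA (log2 fold change 1.62, adjusted p = 9.12e-08), called after every day 1 treatment, although LM libraries from 100.1 CPM overlapped PM libraries up to 113.3 CPM. BMP7 and FST, an antagonist of activin, were lower in LM, with log2 fold changes of -1.86 and -2.98, each called after 3 day 1 treatments.

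Lateral and cardiac mesoderm factors rose as a whole. All 14 listed genes were higher in LM on average and 12 after every day 1 treatment, with a median log2 fold change of 5.54. HAND1 (chr5:154474972-154478227, minus strand), a factor of lateral mesoderm, extraembryonic mesoderm and heart, stood at 388 to 2127 CPM in LM and at 1.05 to 20.6 CPM in PM. Within LM it was at 388 and 818 CPM after DE(a), 806 and 1528 CPM after APS, and 1790 to 2127 CPM after MPS and PPS. Its log2 fold change was 8.49 (SE 0.34, adjusted p = 5.76e-15). ISL1, a factor of cardiac progenitors, stood at 10.8 to 94.8 CPM in LM, highest after PPS and lowest in an MPS library, and at 0.861 CPM or less in PM. By staining, the study found GATA3 in almost every cell with high ISL1 after the LM protocol, and described these cells as amnion-like. HAND2 (8.26 to 158 CPM), TBX20 (14.03 to 61.6 CPM) and GATA5 (24.0 to 72.9 CPM) were at 1.58 CPM or less in every PM library. TBX2, a T-box repressor, stood at 37.7 to 89.9 CPM in LM and at no more than 0.0631 CPM in PM, so it was at least 436-fold higher. NKX2-5, an early heart factor, stood at 8.03 to 39.3 CPM in LM and at 0.173 to 0.768 CPM in PM, with log2 fold change 5.32 (SE 0.40, adjusted p = 4.20e-10). For ISL1, TBX20, HAND2 and GATA5, whose PM libraries lie near 0, the fitted fold moves with single libraries: that of ISL1 was 6.85, and 8.34 without APS-PM replicate 1 and 8.09 without PPS-PM replicate 1. That of TBX20 was 8.90 and became 10.14 without APS-PM replicate 1, GATA5 moved from 6.27 to 7.75 without PPS-PM replicate 1, and HAND2 from 8.67 to 9.58 without DE(a)-PM replicate 2. Each stayed called.

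Muscle and contractile genes were divided. Of 15 tested, 8 were higher, 2 lower and 5 not called, and 4 were higher after every day 1 treatment. ACTC1, cardiac actin, stood at 225 to 3676 CPM in LM and at 10.2 to 178 CPM in PM (log2 fold change 5.87, SE 0.27, adjusted p = 8.13e-14). MYL4, an atrial myosin light chain, and TNNT2, cardiac troponin T, had medians of 32.0 and 6.50 CPM in LM and of 0.932 and 1.03 CPM in PM. ACTA2, smooth muscle actin, and DES, desmin, were lower in LM, with log2 fold changes of -2.11 and -1.74.

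**Figure D2:**
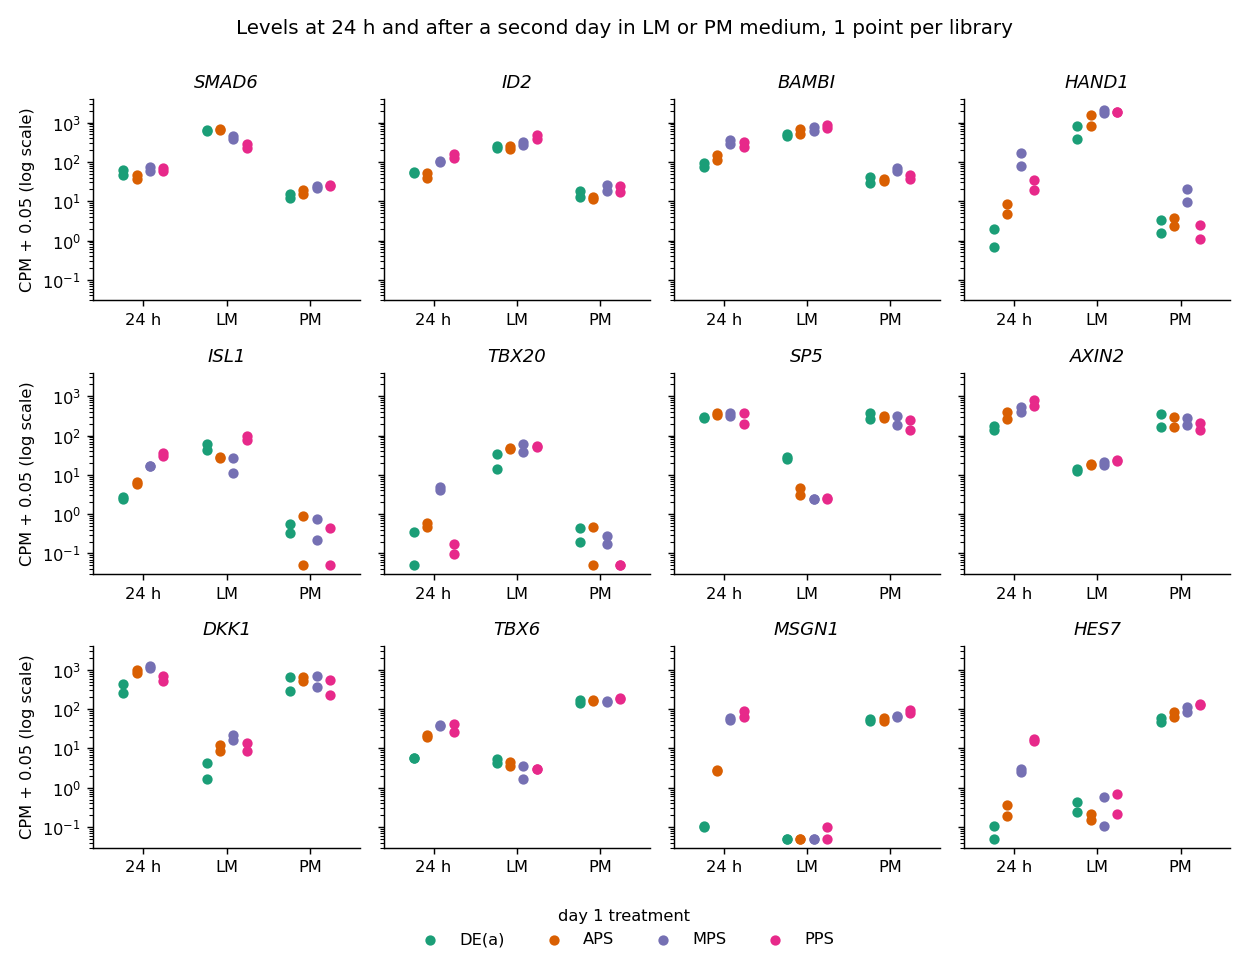
CPM plus 0.05 on a log scale for 12 genes, with 1 point per library, coloured by day 1 treatment, at 24 h and after LM or PM medium. In the upper row and for ISL1 and TBX20 all LM points lie above all PM points, and for SP5, AXIN2, DKK1, TBX6, MSGN1 and HES7 all LM points lie below.

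Feedback targets of Wnt signalling were lower in LM. All 14 listed genes were called lower on average and 8 after every day 1 treatment, with a median log2 fold change of -3.57. RNF43, a ligase that removes Wnt receptors, was lower on average but higher in LM after PPS (log2 fold change 1.40). The list's summed level was 286.3 to 547.9 CPM in LM and 1380 to 3624 CPM in PM. Within PM, replicate 2 was above replicate 1 after each day 1 treatment, for example 3358 against 1740 CPM after DE(a), and the reason for this was not tested.

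Promoters of genes that were lower in LM after every day 1 treatment are shown because they hold the core of the motif read by TCF/LEF factors, the DNA-binding partners of the Wnt pathway. The core searched was CTTTGA, which is TCAAAG on the other strand, in the 250 bases before the RefSeq start (GRCh38.p14), with the matches in capitals. SP5 (chr2:170715087-170715336, plus strand) held 3, DKK1 (chr10:52314031-52314280, plus strand) held 2, and MSGN1 (chr2:17816210-17816459, plus strand) and CDX2 (chr13:27969316-27969565, minus strand) held 1 each.
SP5: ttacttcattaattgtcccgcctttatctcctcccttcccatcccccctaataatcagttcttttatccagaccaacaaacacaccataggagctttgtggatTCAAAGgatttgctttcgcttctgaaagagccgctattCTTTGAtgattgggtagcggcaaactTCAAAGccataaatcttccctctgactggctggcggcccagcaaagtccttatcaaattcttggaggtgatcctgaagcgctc
DKK1: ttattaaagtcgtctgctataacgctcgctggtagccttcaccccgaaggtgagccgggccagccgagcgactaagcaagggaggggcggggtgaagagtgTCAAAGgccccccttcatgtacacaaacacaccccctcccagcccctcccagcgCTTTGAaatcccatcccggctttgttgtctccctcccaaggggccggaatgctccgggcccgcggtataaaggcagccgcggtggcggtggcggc
MSGN1: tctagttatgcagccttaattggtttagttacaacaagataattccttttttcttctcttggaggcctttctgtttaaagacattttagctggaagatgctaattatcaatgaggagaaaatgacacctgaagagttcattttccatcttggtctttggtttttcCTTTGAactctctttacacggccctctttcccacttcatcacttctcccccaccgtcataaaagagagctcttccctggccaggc
CDX2: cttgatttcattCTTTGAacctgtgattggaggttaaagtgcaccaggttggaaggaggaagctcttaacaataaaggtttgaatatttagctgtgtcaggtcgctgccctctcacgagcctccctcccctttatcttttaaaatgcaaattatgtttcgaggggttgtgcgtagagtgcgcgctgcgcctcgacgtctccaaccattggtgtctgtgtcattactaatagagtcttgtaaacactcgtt
The core occurs in 11.2% of all 35116 promoters of this length, and the genes shown were picked for having it. Of the genes with a promoter in the table, at least 1 of their promoters held it for 76 of 502 (15.1%) of those lower after every day 1 treatment, 62 of 533 (11.6%) of those higher, and 1381 of 12272 (11.3%) of all tested. These shares are descriptions of sequence, and no binding was measured.

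SP5, a transcription factor induced by Wnt, stood at 136 to 376 CPM in PM and at 2.34 to 29.1 CPM in LM. The LM libraries after DE(a) were the highest, at 25.4 and 29.1 CPM, and the other 6 were at 4.51 CPM or less. Its log2 fold change was -5.66 (SE 0.18, adjusted p = 7.95e-16). AXIN2, a scaffold of the complex that degrades beta-catenin, stood at 136 to 345 CPM in PM and at 12.6 to 24.2 CPM in LM (log2 fold change -3.55, SE 0.18, adjusted p = 2.77e-13). DKK1, a secreted Wnt antagonist, stood at 233 to 687 CPM in PM and at 1.59 to 21.8 CPM in LM (log2 fold change -5.69, SE 0.27, adjusted p = 1.04e-13). The media did not overlap for any of these genes. NKD1, another inhibitor of the pathway, had medians of 507 CPM in PM and 39.6 CPM in LM. DKK4, a relative of DKK1, had no count in any LM library. In PM it stood at 0.273 to 2.53 CPM in replicate 1 and at 29.3 to 73.7 CPM in replicate 2, and the reason was not tested. Its log2 fold change was -11.83, and its call was lost without MPS-PM replicate 2 (-10.25) or PPS-PM replicate 2 (-10.36). LEF1, a DNA-binding factor of the pathway, had the smallest fall of the list, with a log2 fold change of -0.71 and media that overlapped.

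Presomitic mesoderm genes fell with few exceptions. Of 18 tested, 14 were lower in LM, 12 after every day 1 treatment, 2 were higher and 2, RIPPLY1 and RIPPLY2, had no estimable average. The summed level of the list was 36.7 to 254 CPM in LM and 1875 to 3499 CPM in PM. TBX6 (chr16:30085793-30091924, minus strand), which directs cells away from a neural and towards a paraxial fate, stood at 146 to 195 CPM in PM and at 1.66 to 5.27 CPM in LM (log2 fold change -5.53, SE 0.15, adjusted p = 5.15e-17). MSGN1, a factor of the presomitic mesoderm, stood at 49.7 to 96.8 CPM in PM and had 0 counts in all but 1 LM library, where it was at 0.0525 CPM, so it was at least 410-fold lower in LM. TBXT (brachyury) stood at 133 to 557 CPM in PM and at 0.161 to 1.20 CPM in LM (log2 fold change -8.93, SE 0.31, adjusted p = 7.42e-16). HES7, an oscillating gene of the segmentation clock, had medians of 85.3 CPM in PM and 0.177 CPM in LM, and the Notch ligand DLL1 had medians of 198 and 1.06 CPM. Their log2 fold changes of -8.25 and -7.28 became -8.84 without MPS-LM replicate 2 and -8.90 without MPS-LM replicate 1. FGF8 and WNT3A, signals of the tail bud, were lower after every day 1 treatment. FGF8 had 3 counts or fewer in each LM library and was at least 145-fold lower, and WNT3A had a log2 fold change of -6.34. The members that were higher in LM were MESP1 and MESP2, factors of early mesoderm and of the somite boundary, with log2 fold changes of 1.54 and 3.88, each called after 2 day 1 treatments. Their levels were low, at most 8.92 and 5.24 CPM in LM.

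CDX1 and CDX2, caudal-type factors of posterior identity, were lower in LM by an amount that depended on the day 1 treatment. CDX2 stood at 166 to 243 CPM in all PM libraries. In LM it was at 0.318 and 0.477 CPM after DE(a), 0.722 and 2.15 CPM after APS, 29.0 and 43.5 CPM after MPS and 78.4 and 73.7 CPM after PPS. The log2 fold change ran from -8.84 after DE(a) to -1.17 after PPS, and the test of a difference among the day 1 treatments gave an adjusted p of 1.89e-06. CDX1 stood at 129 to 220 CPM in PM and at 8.79 CPM or less in LM, with a log2 fold change of -7.10, or -8.32 without DE(a)-LM replicate 2.

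Early somite factors were divided. Of 10 tested, 6 were lower in LM, 3 were higher and 1 was not called, and 2 were lower after every day 1 treatment. FOXC1, a forkhead factor of paraxial mesoderm, stood at 99.4 to 335 CPM in PM and at 0.291 to 6.22 CPM in LM (log2 fold change -7.92, SE 0.23, adjusted p = 8.50e-17). The member without a call, MEOX1, had no estimable average, with 6.43 CPM as its highest level in PM. Of 8 intermediate mesoderm factors, 3 were lower, 1 higher and 4 not called, against 21.0% of all genes tested in each direction. OSR1 stood at 12.0 to 68.7 CPM in PM against 0.0474 to 1.503 CPM in LM (log2 fold change -5.45, or -6.15 without MPS-LM replicate 1).

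**Figure D3:**
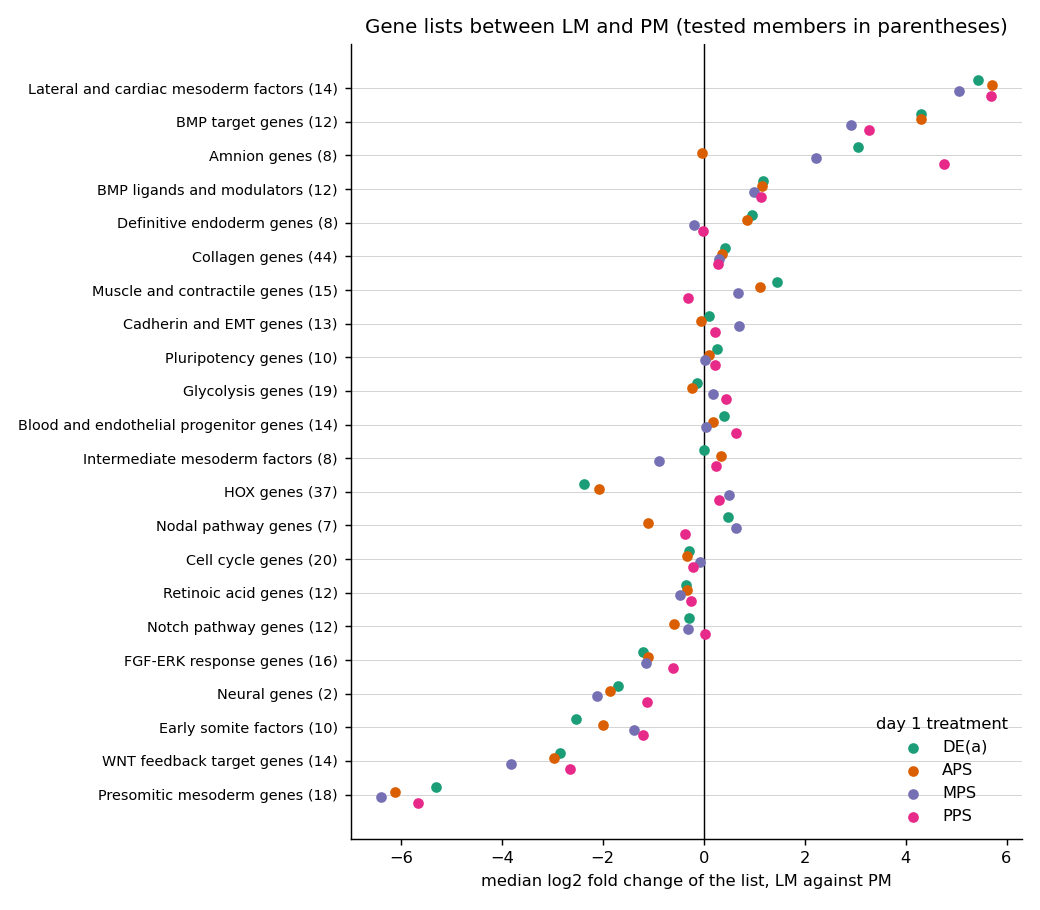
Median log2 fold change, LM against PM, of the tested members of each gene list, with 1 point per day 1 treatment and the number of tested members in parentheses. Lateral mesoderm and BMP target lists lie at 2.92 or above and presomitic and Wnt feedback lists at -2.65 or below after all 4 day 1 treatments.

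FGF-ERK response genes changed unevenly. PM held bFGF and LM did not, and of 16 tested genes 11 were lower in LM, 3 were higher and 2 were not called, with 4 lower after every day 1 treatment. IL17RD, a membrane inhibitor of FGF receptors, stood at 328 to 721 CPM in PM and at 22.4 to 70.7 CPM in LM (log2 fold change -3.89, SE 0.12, adjusted p = 3.34e-16). ETV4, an ETS factor, had medians of 131 and 19.3 CPM, EGR1, an immediate early gene, of 115 and 2.50 CPM, and SPRY4, a feedback inhibitor, of 245 and 101 CPM in PM and LM, with no overlap. Within PM, EGR1 stood at 27.7 to 111 CPM in replicate 1 and at 119 to 240 CPM in replicate 2, and the reason was not tested. DUSP6, a phosphatase of ERK that is often used as a readout of FGF signalling, was at 111 to 318 CPM in LM and 145 to 265 CPM in PM. Its media overlapped, and its log2 fold change of 0.10 (SE 0.19, adjusted p = 0.727) was not called. SPRY2 was not called either, with log2 fold change -0.17. DUSP5, SPRED1 and ETV1 were higher in LM, with log2 fold changes between 0.40 and 0.79.

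Of 7 Nodal pathway genes, 3 were lower and 1 higher, and LEFTY1, LEFTY2 and CER1 had no estimable average. Of the lower genes, NODAL and FOXH1 were called after 1 day 1 treatment each and GSC after 3. NODAL (median 0.668 CPM in PM) lost its call without MPS-PM replicate 1 (log2 fold change -1.27 in place of -1.53). GSC (median 3.05 CPM in PM) lost its call without PPS-PM replicate 1 (-1.035 in place of -2.07). Without PPS, FOXH1 was not called by edgeR (-0.42, adjusted p = 0.118). The member that was higher was TDGF1, a co-receptor of Nodal, at 31.4 to 168 CPM in LM and 3.37 to 35.5 CPM in PM (log2 fold change 3.29, SE 0.22, adjusted p = 2.56e-11), called after every day 1 treatment, with the lowest LM library below the highest PM library. At 24 h TDGF1 had stood at 75.1 to 680 CPM, above its PM range in each library.

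Notch pathway genes moved in both directions. Of 12 tested, 3 were higher in LM, 6 lower and 3 not called. NOTCH1 had medians of 71.2 CPM in LM and 468 CPM in PM, and its target HEYL of 1.51 and 26.8 CPM, with no overlap. HES1, a Notch target in many tissues, went the other way, at 16.4 to 28.4 CPM in LM and 0.714 to 9.91 CPM in PM (log2 fold change 2.85, SE 0.30, adjusted p = 5.28e-08). DLK1, a ligand-like protein, was also higher in LM, at 1.71 to 29.7 CPM against 0.725 CPM or less.

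Of 12 retinoic acid genes, 4 were higher, 5 lower and 3 not called. ALDH1A2, the main retinoic acid synthesising enzyme of mesoderm, and STRA6, a retinol receptor, were lower in LM after every day 1 treatment. ALDH1A2 stood at 41.7 to 508 CPM in PM, lowest after PPS, and at 0.361 to 18.0 CPM in LM, highest after PPS (log2 fold change -5.82, SE 0.27, adjusted p = 1.17e-13). CYP26A1, which degrades retinoic acid, had a median of 8.08 CPM in LM against 0.0717 CPM and was called higher after 3 day 1 treatments. Its log2 fold change of 4.61 ran from 5.48 without APS-PM replicate 1 to 6.17 without DE(a)-PM replicate 1, with 5.75 and 6.09 without MPS-PM and PPS-PM replicate 1.

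HOX genes are described by their place in the cluster, and the difference between places was not tested. The genes at the 3′ end of each cluster, with low numbers, are used in anterior parts of the body and those at the 5′ end, with high numbers, in posterior parts. Of 12 tested genes numbered 1 to 4, 11 were lower in LM and 1 was not called. Of 15 numbered 5 to 9, 5 were lower, 1 was higher and 9 were not called, 2 of them with no estimable average. Of 10 numbered 10 to 13, 5 were higher and 5 were not called, 3 of them with no estimable average. HOXB1 stood at 108 to 247 CPM in PM and at 0.322 to 5.58 CPM in LM, with no overlap (log2 fold change -6.42, SE 0.28, adjusted p = 8.84e-14). HOXA13 ranged from 1.15 to 136 CPM in LM and from 0.047 to 2.46 CPM in PM, with overlap and a log2 fold change of 4.54 (adjusted p = 1.38e-09), and was named after its values were seen, as was HOXC13. HOXC13 was at 0.269 to 5.03 CPM in LM and at 0.224 CPM or less in PM. For 12 of the 37 HOX genes tested the difference between media depended on the day 1 treatment, against 6.85% of all genes tested (1226 of 17895).

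**Figure D4:**
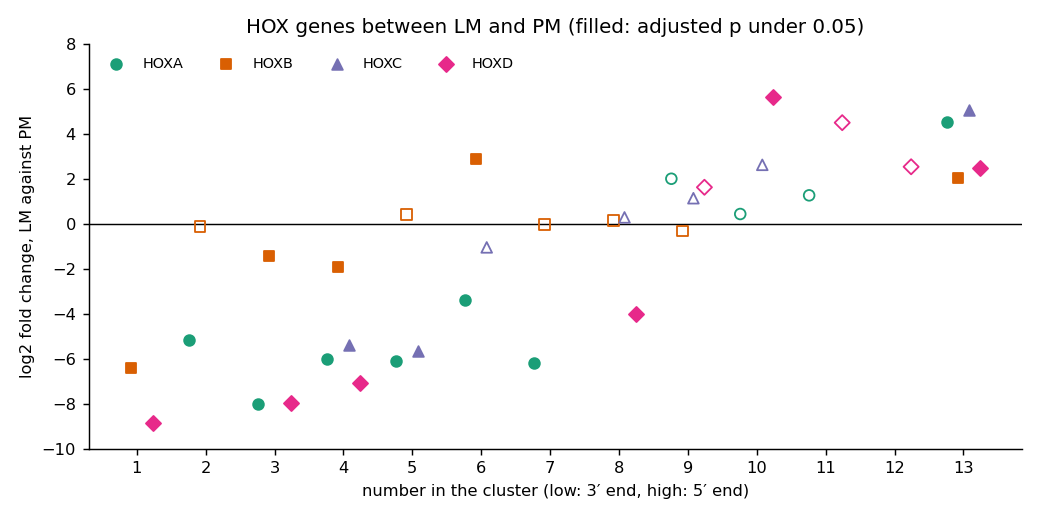
Log2 fold change, LM against PM, of 36 of the 37 tested HOX genes by their number in the cluster, with a symbol for each cluster and filled symbols for genes called on average over the day 1 treatments, while 5 of the open symbols have no estimable average. Called genes numbered 1 to 4 all lie below 0 and called genes numbered 10 to 13 all lie above 0.

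E-cadherin (CDH1) and N-cadherin (CDH2), the adhesion molecules that epithelial cells exchange on becoming mesenchymal, differed in opposite directions. CDH2 stood at 450 to 529 CPM in PM and at 106 to 235 CPM in LM, with no overlap (log2 fold change -1.44, SE 0.08, adjusted p = 5.94e-13). CDH1 was higher in LM after every day 1 treatment, with log2 fold change 1.56 (SE 0.13, adjusted p = 1.99e-09), but the media overlapped. In LM it was at 186 and 209 CPM after DE(a), 47.4 and 46.4 CPM after APS, 46.3 and 67.4 CPM after MPS and 616 and 763 CPM after PPS. SNAI1, a repressor of CDH1, was lower in LM, at 14.9 to 32.5 CPM against 58.0 to 97.5 CPM. SNAI2, its relative, was higher in LM, at 67.7 to 382 CPM against 45.8 to 67.3 CPM. ZEB2 and VIM were not called on average. Of the 13 cadherin and EMT genes, 6 were higher, 5 lower and 2 not called.

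Collagen genes were also divided, with 20 of 44 higher in LM, 12 lower and 12 not called. COL1A1 and COL1A2, which encode the chains of the same collagen, went in opposite directions after every day 1 treatment, with log2 fold changes of 1.54 and -1.38. COL11A1 stood at 178 to 565 CPM in LM and at 35.2 to 75.1 CPM in PM (log2 fold change 2.66, SE 0.11, adjusted p = 8.16e-15), and COL2A1, a cartilage collagen, was lower in LM (log2 fold change -2.02). COL1A1, COL1A2 and COL2A1 were chosen after their values were seen.

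Among the genes with the largest rises of those higher after every day 1 treatment were RGS13, LUM, TBX2, CBLN2, RGS1, ODAM and SAMD11. These had 3 counts or fewer in each PM library, so their folds are lower bounds, from at least 112-fold for ODAM to at least 830-fold for LUM, a proteoglycan of connective tissue. The bounds use the mean of the 8 LM libraries and need not hold after each day 1 treatment. After DE(a), LM libraries were at 0.446 and 1.25 CPM for ODAM and at 0.255 and 1.86 CPM for RGS1. RGS13, a regulator of G protein signalling, had 0 counts in all PM and all 24 h libraries and 11.1 to 279 CPM in LM, lowest after PPS. The largest falls were MSGN1, KRT71, EDAR, ZNF831, KRT74, TNFRSF9, FOXB1 and C11orf87. EDAR, the ectodysplasin receptor, stood at 26.0 to 197 CPM in PM and at 0.0582 CPM or less in LM, at least 573-fold lower. KRT71 and KRT74, keratins known from hair follicles, stood at 5.75 to 111 and 4.196 to 33.96 CPM in PM and had 0 counts in every LM library. Within PM, replicate 2 was above replicate 1 after each day 1 treatment for KRT71, KRT74, EDAR and ZNF831, and the reason was not tested.

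Markers of other cell types the cultures could hold were read as whole lists. The 9 amnion genes summed to 69.5 to 417 CPM in LM and to 10 to 19 CPM in PM, and of 8 tested all were higher in LM on average, but 2 of them, GATA3 and TFAP2A, after every day 1 treatment. PPS-LM libraries had the highest sums, 289 and 417 CPM, followed by DE(a)-LM with 211 and 262 CPM. GATA3 and TFAP2A, which other ectodermal tissues also use, had log2 fold changes of 6.43 and 5.81, and that of GATA3 was 7.66 without DE(a)-PM replicate 1. GABRP, a defining gene of amnion, stood at 31.8 and 51.9 CPM in PPS-LM and at 0.664 to 5.40 CPM in the other LM libraries. The log2 fold change of GABRP was 2.46, or 3.73 without PPS-PM replicate 1, and without PPS its call was lost (0.75, adjusted p = 0.151). That of KRT7 was lost without PPS too (0.51, adjusted p = 0.532). KRT7 also lost its call without any one of 12 single libraries, TFAP2B without DE(a)-LM replicate 2 and VTCN1 without MPS-LM replicate 1. CDH1 and the Notch target HEY1 were also highest in PPS-LM, and the part of an amnion-like population in these values was not tested. For the other lists, of 14 tested blood and endothelial genes 5 were higher, 3 lower and 6 not called. SOX7, among the higher, lost its call without any one of 6 single libraries. KDR, a receptor of endothelial progenitors and lateral mesoderm, stood at 288 to 1506 CPM in LM and 16.7 to 112 CPM in PM, and GATA2 at 119 to 459 CPM and 0.640 to 14.4 CPM. TAL1 and GATA1, defining genes of blood, were too low to be tested, and LMO2, another blood factor, was lower in LM (log2 fold change -5.02).

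Of 8 definitive endoderm genes, 2 were higher, 2 lower and 4 not called, against 21.0% of all genes tested in each direction. The higher genes were FOXA1, which lost its call without any one of 8 single libraries, and HHEX, which lost it without either of 2. Without PPS neither was called (adjusted p = 0.377 and 0.0673). CXCR4, a chemokine receptor that is also used in mesoderm, stood at 156 to 335 CPM in PM and at 0.107 to 10.3 CPM in LM, with a log2 fold change of -6.96, or -7.74 without MPS-LM replicate 2. SOX17 and FOXA2, defining factors of endoderm, had no estimable average, with medians of 0.431 and 0.336 CPM in LM and 0.107 and 0.211 CPM in PM. Their highest levels were 94.8 and 34.6 CPM in LM and 72.7 and 33.03 CPM in PM, all in cells that had passed through DE(a). The endoderm list summed to 197 and 161 CPM in DE(a)-LM and to 6.77 to 20.6 CPM in the other LM libraries, against 247 to 354 CPM in PM. The PM sums were mostly CXCR4, with a median of 254.5 CPM in PM against 278.5 CPM for the list. Of 10 pluripotency genes, 3 were higher, 2 lower and 5 not called, against 21.0% of all genes tested in each direction. DPPA4 and PRDM14, both higher, lost their calls without any one of 10 and 6 single libraries. NANOG, which was lower, lost its call without either of 2. Without PPS, DPPA4 and NANOG were not called (adjusted p = 0.0939 and 0.140). The summed level of the list was 1468 to 2218 CPM in LM and 1400 to 2214 CPM in PM. Most of it was LIN28A, with medians of 1212 CPM in LM and 1087 CPM in PM, while POU5F1 had medians of 17.3 and 19.4 CPM. Among the 6 neural genes, PAX6, SOX1, HES5 and NEUROG2 were too low to be tested. SOX3 was lower in LM (log2 fold change -2.71, SE 0.49, adjusted p = 0.000104) and reached 18.6 CPM in PM, and OTX2, at most 17.4 CPM in LM and 21.4 CPM in PM, was not called (adjusted p = 0.0688). SOX17, FOXA2, OTX2, PAX6, SOX1, HES5, NEUROG2, TAL1 and GATA1 were named after their values were seen.

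Cell cycle genes were mostly lower or not called. Of 20 cell cycle genes, 1 was higher, 10 lower and 9 not called, with a median log2 fold change of -0.20. CDK1, the kinase of mitotic entry, was higher in LM, at 192 to 300 CPM against 102 to 152 CPM with no overlap (log2 fold change 1.00, SE 0.11, adjusted p = 1.03e-07), while its partner cyclins CCNA2 and CCNB1 were not called. CCNE2, a cyclin of the start of DNA replication, was lower (log2 fold change -1.48, SE 0.16). Of 19 glycolysis genes, 6 were higher, 3 lower and 10 not called, with a median of 0.007, against 21.0% of all genes tested called in each direction. PFKP, the platelet form of phosphofructokinase, was higher after every day 1 treatment, at 149 to 415 CPM against 58.4 to 113 CPM.

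The direction in which each medium moved away from the 24 h populations was read next. LM and PM are both compared with the same 24 h libraries, and the time differs as well as the medium, so the comparisons are not independent of each other. Against 24 h, 4909 genes (27.4%) were higher and 5116 (28.6%) lower in LM, and 4146 (23.2%) were higher and 4483 (25.1%) lower in PM. Of the 709 genes higher in LM than PM after every day 1 treatment, 611 (86.2%) were above 24 h in LM, 388 (54.7%) were below 24 h in PM, and 290 (40.9%) were both. Of the 664 genes lower in LM, 523 (78.8%) were below 24 h in LM, 437 (65.8%) were above 24 h in PM, and 296 (44.6%) were both.

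Named genes of each pathway are given against 24 h. Of the Wnt feedback genes, SP5 changed by -6.03 in LM and -0.37 in PM on the log2 scale, AXIN2 by -4.33 and -0.78, and DKK1 by -6.27 and -0.58. IL17RD, of the FGF pathway, was at -3.90 in LM and -0.0056 in PM, where it was not called. Of the BMP targets, SMAD6 changed by 3.03 in LM and -1.63 in PM and ID2 by 1.88 and -2.28. SMAD7 was not called against 24 h in LM (log2 fold change 0.11, adjusted p = 0.343) and lower in PM (-4.06). TBX6 changed by 2.999 in PM and -2.53 in LM, and FOXC1 by 4.23 and -3.69. TBXT was below its 24 h level in both media, by -1.24 in PM and -10.17 in LM. HES7 was above 24 h in PM by 6.70 and was not called in LM (-1.55, adjusted p = 0.0786). HAND1 changed by 6.60 in LM and -1.89 in PM.

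**Figure D5:**
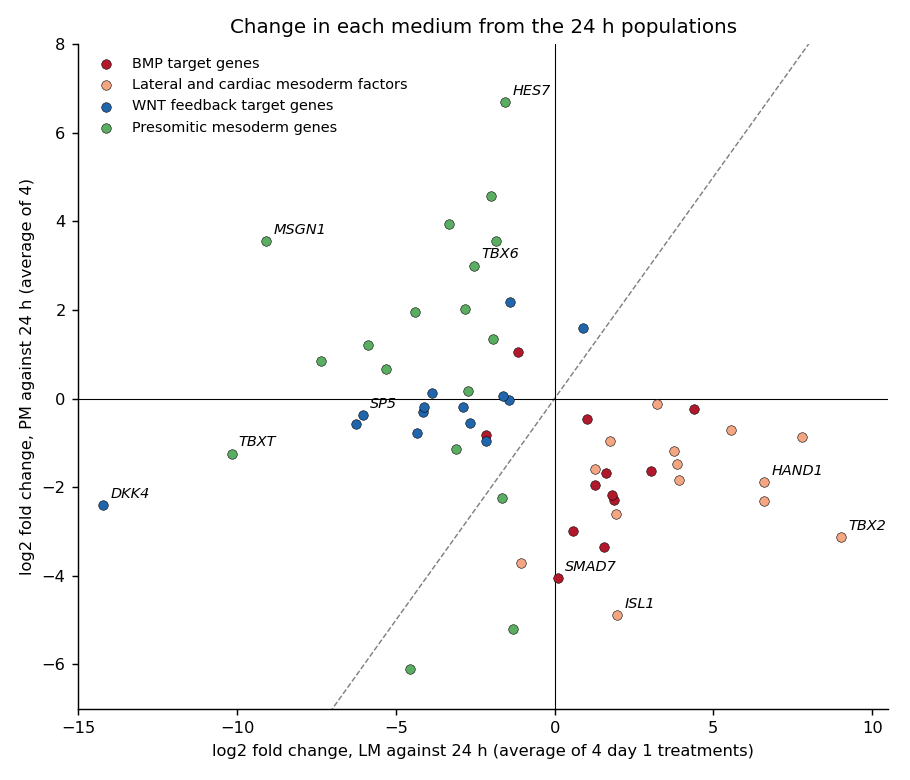
Log2 fold change against 24 h in LM (horizontal axis) and in PM (vertical axis), each averaged over the 4 day 1 treatments, for tested genes of 4 lists, with the dashed line where both media are equal. Most Wnt feedback genes lie left of 0 near the horizontal line, most presomitic genes lie upper left, and lateral mesoderm factors and BMP targets lie mostly lower right.

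How far the difference between media depended on the day 1 treatment was tested directly. It did for 1226 genes (6.85%), among them 135 of the 709 genes (19.0%) and 100 of the 664 genes (15.1%) that were called in the same direction after every day 1 treatment, where the size differed and not the direction. For 588 of the 1226 genes (48.0%) PPS was the day 1 treatment whose difference lay farthest from the mean of the 4, and for 432 (35.2%) it was DE(a), against 125 for MPS and 81 for APS. Leaving PPS out, a choice made after the data were seen, 500 genes depended on the day 1 treatment.

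A small set of 157 genes was called in opposite directions after different day 1 treatments, and 156 of them also passed the test among day 1 treatments. ADD2, a protein of the membrane skeleton, was lower in LM after DE(a) and APS (log2 fold changes -1.05 and -1.13) and higher after MPS and PPS (0.75 and 1.93). Its PM libraries lay between 65.1 and 93.7 CPM throughout, and its LM libraries ran from 30.7 and 35.7 CPM after APS to 302 and 255 CPM after PPS. TRIP13, a mitotic checkpoint ATPase, followed the same order, with PM libraries at 45.8 to 53.0 CPM and LM libraries from 27.9 CPM after APS to 104 CPM after PPS. GATM, which makes the precursor of creatine, was lower in LM after DE(a), APS and MPS and higher after PPS, where LM libraries were at 109 and 96.5 CPM against 10.3 and 12.7 CPM. CYB5A and FAM210B were also higher in LM after PPS alone among the 4. VRTN, a gene known for its link to vertebra number in pigs, had the reverse order, at 224 and 152 CPM in LM after DE(a) against 10.8 to 14.3 CPM after MPS and PPS.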

How the data were processed

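ESI017 cells were collected after the second day, and poly(A) RNA was sequenced as stranded paired-end libraries on a NextSeq 2000. The deposited values are estimated counts per gene that the authors made with Salmon 1.10.2 (GRCh38, per the submitters' processing notes), not normalized. Here they were rounded to whole numbers and normalized by TMM. All 34 libraries entered one edgeR 4.0.16 quasi-likelihood fit (R 4.3.3) with a mean for each of 17 conditions and 17 residual degrees of freedom. filterByExpr kept 17895 of 37951 genes, and p-values were adjusted by Benjamini-Hochberg over these genes. LM was compared with PM after each day 1 treatment, averaged over the 4, and for a difference among them. Calls were made at an adjusted p under 0.05. CPM values divide by the library total, and 3 counts served as the floor. Where a fold is given as a lower bound, it is the mean CPM of the higher medium over this floor.

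Genes were named by rule: the 8 largest rises and 8 largest falls among genes called in one direction after every day 1 treatment with at least 10 CPM in the higher medium, up to 6 called members per list with the largest change, and a set of standard markers. The comparison and the gene lists were chosen with earlier results of these data known. A few genes that the rule names are not reported here. Alternatives included DESeq2 1.42.0, RLE scaling, no filter, a replicate block and leaving out libraries. The procedure was tested on simulated data. Of 100 genes with a log2 change of 1, 68 were called on average and 24 after every day 1 treatment. Of 100 with a log2 change of 2, these counts were 82 and 55, so calls after every day 1 treatment missed many true changes. Of the unchanged genes among 17656, 9 were called on average and 0 after every day 1 treatment. Simulated libraries were drawn independently, whereas replicates of the same number in the data partly deviated together. These error counts may therefore not carry over to the data. Replicates correlated at 0.9781 to 0.9909 (Pearson, log2 CPM), and none was a duplicate. Promoters came from RefSeq (GRCh38.p14) and gene positions from GENCODE v44.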

Additional observations from a re-analysis of the deposited data

Results flagged for a closer look

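For 42 of the 143 named genes the difference between LM and PM depended on the day 1 treatment, by edgeR's test of a difference among the 4 log2 fold changes. The adjusted p of that test follows each gene in parentheses. A value past the threshold says that the differences were unequal, not which day 1 treatment set them apart. Among signalling genes these were SMAD6 (0.000166), SMAD7 (0.0121), ID1 (0.00317), MSX2 (0.0125) and GDF6 (0.0338) of the BMP pathway, SP5 (0.000238), SP8 (9.14e-05) and LGR5 (0.00153) of the Wnt pathway, IL17RD (0.00242) of the FGF pathway, FOXH1 (0.0181) of the Nodal pathway and HEY1 (0.00567) of the Notch pathway. Genes of the CDX, HOX, early somite, intermediate mesoderm and retinoic acid groups were CDX1 (3.89e-05), CDX2 (1.89e-06), HOXA3 (0.0135), HOXD4 (0.0227), FOXC1 (0.00085), SALL1 (0.0126) and ALDH1A2 (5.88e-06).

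Markers of other cell types and epithelial genes were GATA3 (3.74e-05), TFAP2A (0.0131), GABRP (0.000112), GATA2 (3.66e-05), KDR (0.00177), SOX18 (0.00578), CXCR4 (0.00924), PRDM1 (0.000431), L1TD1 (0.000548), CDH1 (0.00252), CDH2 (0.034) and FN1 (0.000402). Contractile, matrix and glucose transport genes were ACTC1 (0.00783), MYL4 (0.00541), TNNI1 (0.0436), ACTA2 (0.000239), COL6A6 (0.033) and SLC2A1 (4.41e-05). SLC2A1 was called higher after 1 day 1 treatment and lower after 2. Genes picked for being called in opposite directions after different day 1 treatments were ADD2 (7.53e-07), TRIP13 (1.89e-06), GATM (1.89e-06), FAM210B (2.43e-06), CYB5A (3.39e-06) and VRTN (4.04e-06).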

How the results depend on the processing

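The main counts were 3756 genes higher and 3758 lower on average, 709 and 664 after every day 1 treatment, and 1226 whose difference depended on day 1. The last count was 2467 with no filter on low counts, 1978 with DESeq2, 634 with the 16 LM and PM libraries alone and 500 without PPS (an alternative chosen after seeing the data), and the cause was not tested. Testing for a fold change of at least 2 left 1033 and 896 genes on average and 224 and 233 after every day 1 treatment, by its stricter hypothesis. With replicate 1 alone 1276 genes were higher and 1320 lower, with replicate 2 alone 2069 and 1914, in both cases with fewer samples. With these and with single libraries left out, the counts on average ran from 1276 to 3802 and 1320 to 3671. With single libraries left out, the other counts ran from 530 to 677, 473 to 632 and 892 to 1255. Other scaling (RLE in place of TMM) gave 707 and 664 genes after every day 1 treatment, and the median log2 fold change of all genes was 0.00417, 0.00266 and -0.0524 with TMM, RLE and no scaling factor. Same-numbered LM and PM replicates deviated together with correlations of 0.197, 0.0219, 0.116 and 0.163 in the order DE(a), APS, MPS, PPS. Over all 28 pairs of LM and PM conditions 21 exceeded 0.1 (median 0.18, highest 0.531). As APS did not, the numbers were not taken to pair the samples, and this is a hint from the data only. With a replicate block the counts were 4145, 4099, 818, 767 and 1622. Of 143 called named genes, 16 lost the call without at least 1 of the 16 single libraries. The sign of DUSP6, never called, turned with replicate 1 alone (-0.1434, against 0.2963 with replicate 2 alone), without DE(a)-LM replicate 2 (-0.02863) and without MPS-LM replicate 2 (-0.004861). That of ADD2 turned without MPS-LM replicate 2 (-0.00209) and without PPS (-0.475), and that of TRIP13 without PPS (-0.2224). The log2 fold change of ADD2 rose to 0.2197 without MPS-LM replicate 1. Depth limits the low genes: 629 of the 631 genes with no estimable average had both replicates of a condition at 0 counts.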
